A study of Mus musculus with 16 samples.

Results

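RNA levels of 47 genes of DNA replication and S phase were compared between control (ctrl), *Knl1* conditional knockout (cKO) and *Knl1*/*Trp53* double knockout (dKO) cortex. The genes were taken by name, as a list of known replication genes, from the 51912 genes counted in each UMI RNA-seq library, and 46 of the 47 had at least 1 count. No replication gene reached an FDR below 0.05 in any of the 3 comparisons between genotypes. In a comparison of litters chosen after the data were seen, 13 of them were higher in litter 2 than in litter 1 and 0 lower. Higher in litter 2 were 0.572% of all listed genes, and 286 of the 12023 that passed a filter on low counts. The 13 fell to 2 without cKO 5 or ctrl S3 and to 0 without cKO S2 or after thinning the counts to equal depth. The median log2 difference was 0.57 in the main fit, 0.49 without cKO S2 and 0.42 after thinning.

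A chromosome is copied once per division because the MCM2-7 helicase is loaded at origins in G1 by CDC6 and CDT1, and geminin then blocks further loading. In S phase CDC45 and the GINS complex join MCM2-7 to form the active helicase, DNA polymerase α with primase starts each strand, and polymerases δ and ε extend them on the sliding clamp PCNA. Many of these genes are transcribed as cells enter S phase, under E2F transcription factors, so that in embryonic cortex their RNA is found mainly in cycling neural progenitor cells (NPCs).

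The study deleted *Knl1* (labelled as *Casc5*, its former name), a kinetochore gene needed for the spindle checkpoint, and asked whether cells that missegregate chromosomes are removed through p53. The 4 cKO mice carried a conditional *Knl1* deletion driven by *hGFAP-Cre*, a transgene active in cortical NPCs, and the 4 dKO mice carried the same deletion together with a conditional deletion of *Trp53*, the gene of p53. The labels call 5 of the 7 ctrl mice wild type for the gene and the other two, T4 and T5, heterozygous. Their *Trp53* genotype and the strain are not stated in the labels. All were embryos of day 15.5 (E15.5), of both sexes, from 4 litters. Litter 1 held ctrl 2 and 6 and cKO 5 and 7, and litter 2 held ctrl S1 and S3 and cKO S2. Litter 3 held ctrl T3, T4 and T5 and dKO T2 and T8, and litter 4 held cKO F3 and dKO F1 and F7. By the labels litters 1 and 2 were batch 1, except ctrl S1 in batch 2, and litters 3 and 4 were batch 3. The cortex also holds cells that do not come from these NPCs, such as interneurons, vessels, blood and microglia.

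Totals per mouse were 399832 to 3266227 counts in ctrl, 4178461 to 8800987 in cKO, and 552186 to 5396803 in dKO, so that each cKO total exceeded each ctrl total. The unit of level is CPM, the counts of a gene divided by the library total, which was scaled by TMM, and multiplied by 1e6, and 3 counts corresponded to 7.50 CPM in the shallowest mouse and 0.341 CPM in the deepest before that scaling, which covers counting error only. *Knl1* itself had a median of 68.4 CPM in the ctrl mice, 51.2 CPM in the cKO mice and 53.8 CPM in the dKO mice, and *Trp53* one of 28.0, 28.0 and 24.2 CPM, with overlapping ranges. These counts cover whole genes and all cells of the tissue, so they do not check the deletions. Markers of excitatory neurons summed to between 4065 and 5543 CPM over all mice, those of radial glia to between 709 and 1133 and those of microglia to between 10.2 and 30.7. *Sox2*, a defining marker of radial glia, was listed at 0 in every library. With bulk tissue, fewer cycling cells and less RNA per cycling cell cannot be told apart.

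Promoters of 39 of the 47 genes were found in the RefSeq table of GRCm38.p6, each from 250 bases before to 50 after a transcription start, with 44 promoters in all because some genes have several. An E2F motif, spelled TTTCCCGC, TTTCGCGC, TTTGCCGC or TTTGGCGC on either strand, occurred in 16 of the 44, each from a different gene, against 2.26% of 32851 promoters in the table. The CCAAT motif, bound by NF-Y, occurred in 24 of the 44 on either strand, against 37.4% of all promoters. The promoters of 4 genes are shown, chosen with their values known, because of what the comparison of litters found. *Mcm3*, *Uhrf1* and *Hells* were higher in litter 2 than in litter 1, and *Pola1* was among the genes that differed least. Capitals mark the E2F motif, and each sequence is written 5′ to 3′ on the strand of the gene, the first from chr1:20820263-20820562 (minus strand), the second from chr17:56304063-56304362 (plus strand), the third from chr19:38930740-38931039 (plus strand) and the last from chrX:93632106-93632405 (minus strand).
Mcm3 promoter: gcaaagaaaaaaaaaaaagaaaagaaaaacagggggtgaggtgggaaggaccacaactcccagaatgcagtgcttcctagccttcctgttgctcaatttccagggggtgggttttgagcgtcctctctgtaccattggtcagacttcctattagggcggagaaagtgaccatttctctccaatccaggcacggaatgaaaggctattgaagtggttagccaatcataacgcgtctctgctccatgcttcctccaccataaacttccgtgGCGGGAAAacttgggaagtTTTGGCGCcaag
Uhrf1 promoter: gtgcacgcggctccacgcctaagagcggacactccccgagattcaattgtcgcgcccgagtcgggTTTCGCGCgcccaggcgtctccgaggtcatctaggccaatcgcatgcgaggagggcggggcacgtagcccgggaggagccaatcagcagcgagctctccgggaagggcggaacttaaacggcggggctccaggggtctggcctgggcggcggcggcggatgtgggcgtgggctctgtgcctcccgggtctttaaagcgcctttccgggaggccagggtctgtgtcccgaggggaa
Hells promoter: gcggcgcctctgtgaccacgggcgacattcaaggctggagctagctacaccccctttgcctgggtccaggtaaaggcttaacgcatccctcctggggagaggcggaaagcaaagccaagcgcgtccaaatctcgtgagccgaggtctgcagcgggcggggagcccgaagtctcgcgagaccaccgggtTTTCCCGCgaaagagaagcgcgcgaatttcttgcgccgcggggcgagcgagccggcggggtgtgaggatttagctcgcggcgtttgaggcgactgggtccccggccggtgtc
Pola1 promoter: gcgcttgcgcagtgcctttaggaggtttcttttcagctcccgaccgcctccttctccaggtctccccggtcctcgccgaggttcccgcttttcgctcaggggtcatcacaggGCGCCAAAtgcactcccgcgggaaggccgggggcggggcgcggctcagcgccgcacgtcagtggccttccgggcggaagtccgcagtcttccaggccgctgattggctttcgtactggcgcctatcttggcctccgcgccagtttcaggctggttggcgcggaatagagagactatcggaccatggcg
The matches began 19 and 38 bases after the start in *Mcm3*, 185 bases before it in *Uhrf1*, 62 before it in *Hells* and 138 before it in *Pola1*. For *Uhrf1* the table holds a second promoter, without a match.

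In ctrl cortex the 46 genes with a count spanned 0.632 to 19.7 CPM per kilobase of exon, with a median of 4.59. The lowest were *Ung*, *Gins2* and *Gmnn*, at 0.632 ± 0.322, 1.09 ± 0.447 and 1.38 ± 1.36 CPM per kilobase (SD, n = 7). The highest were *Prim2* and *Pola1*, subunits of the primase and polymerase α complex that starts each new strand, at 19.7 ± 1.71 and 17.8 ± 1.41 CPM per kilobase (SD, n = 7). Their ranges over the ctrl mice overlapped, and the difference between them was not tested. *Pold3*, an accessory subunit of polymerase δ, followed at 12.6 ± 2.58, *Tipin* at 12.1 ± 3.22 and *Mcm7* at 10.003 ± 0.979 CPM per kilobase. The 6 helicase subunits lay between 5.14 and 10.003 CPM per kilobase and together they form the ring of the helicase. Origin licensing was the role with the lowest median among the 11, at 1.49 CPM per kilobase over 3 genes. The paper's methods do not state whether reads within introns were counted. *Prim2* spans chr1:33453810-33669795 with 5938 exon bases, and *Pola1* chrX:93304767-93632155 with 8813. If intron reads were counted, levels per kilobase of exon are overstated for such long genes, which was not tested. Depth also limited these levels, since 14 of the 46 genes had 10 or more counts in every mouse and 5 had 0 counts in at least 1 mouse. The counts of all 46 genes together were 524 in the shallowest mouse and 13663 in the deepest.

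**Figure D1:**
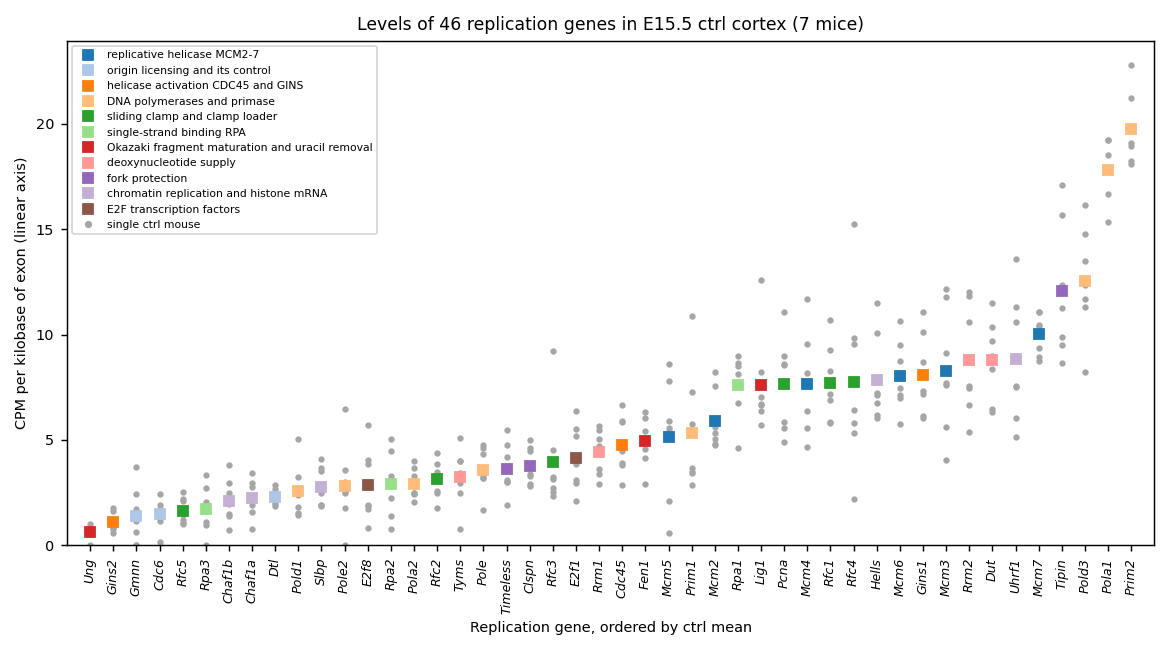
Level of the 46 replication genes with a count in ctrl cortex, in CPM per kilobase of exon on a linear axis. Grey points are the 7 ctrl mice and squares their means, coloured by role, and *Prim2* and *Pola1* stand highest, at 19.7 and 17.8.

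*Cdt1*, the licensing factor that loads MCM2-7 with CDC6, was listed at 0 in every library and is the gene without a count. It lies at chr8:122568015-122573554 on the plus strand of GRCm38, within the span of a gene model, *Gm20388*, annotated on the same strand from 119910841 to 124345722, which had 4788 counts. Of the protein-coding genes inside this span, 36 of 36 on the plus strand, *Cdt1* among them, had no count, and 34 of 35 on the minus strand had counts. The 0 of *Cdt1* is therefore shared by its neighbours of the same strand and is not read here as absence of its RNA. The cause was not tested. Exons of 13 of the replication genes with a count overlap an exon of a gene on the opposite strand, over 84.2% of the exon bases of *Fen1*, 67.3% of those of *Gins2* and 52.5% of those of *Chaf1a*. Whether strand was used in counting is not given in the sources used here, and if it was not, their values are less certain. Inside the span of *Gm20388* the counts did differ by strand. *Mcm7*, *Pole2* and *Rpa1* share exon bases with a gene on their own strand, so their counts are uncertain too.

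Deletion of *Knl1* was first compared with ctrl, which asks whether replication transcripts fall or rise in a cortex that loses NPCs. No replication gene passed the threshold between cKO and ctrl. At an FDR below 0.05, edgeR's likelihood ratio test called 0 of 47, against 0.160% of all listed genes, and the quasi-likelihood F test and DESeq2 also called 0. At an unadjusted p below 0.05 there was 1 gene by either edgeR test and 0 by DESeq2, against 9.47% of genes with a count for the likelihood ratio test. In cKO 38 of 46 had a negative log2 fold change and 8 a positive one, with a median of −0.15 against 0.037 over the 10992 genes that passed a filter on low counts. In none of the 46 did the 4 cKO mice lie all above or all below the 7 ctrl mice, which 1.09% of genes with a count did. With litter as a covariate the median was 0.052, with 27 of 46 positive, so the direction of the median was not kept.

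In dKO against ctrl, which asks the same with p53 removed as well, 0 of 47 reached an FDR below 0.05 by edgeR's likelihood ratio test, its quasi-likelihood F test or DESeq2, against 0.0501% of all listed genes. Unadjusted p-values below 0.05 were found for 3 by either edgeR test, all lower in dKO, and 0 by DESeq2, against 6.72% of genes with a count. The median log2 fold change was −0.11, against 0.013 over the 9638 genes that passed the filter, with 33 of 46 negative. It was 0.020 with litter as a covariate and 0.039 within litter 3. None of the 46 separated the 4 dKO from the 7 ctrl mice, against 0.467% of genes with a count. The ctrl mice are the same as in the first comparison.

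The direct comparison of cKO with dKO asks whether loss of p53 changes the transcripts in *Knl1*-deleted cortex. It called 0 of 47 by the same 3 tests, against 0.0520% of all listed genes. An unadjusted p below 0.05 was given to 0 by the likelihood ratio test and by DESeq2 and to 1 by the quasi-likelihood F test, against 8.22% of genes with a count. The median was −0.057, against 0.046 over the 12484 genes that passed the filter, with 27 of 46 lower in cKO, and in no gene did the 4 cKO and 4 dKO mice separate, against 2.71%. The filter on low counts was passed by 42, 39 and 46 of the genes in the 3 comparisons. The exact permutation test over mice, run two-sided for 23 of the genes in each comparison, gave its smallest p for *Dut* in cKO versus ctrl (0.136), *Mcm4* in dKO versus ctrl (0.109) and *Pold1* in cKO versus dKO (0.0857). The smallest p it can give is 0.00303 for 4 against 7 mice and 0.0286 for 4 against 4.

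The spread between mice and the counting error set the precision. The 95% interval, computed from the SE, lay within a log2 fold change of −1 to 1, a halving to a doubling, for 41 of 46 genes in cKO versus ctrl, 37 in dKO versus ctrl and 39 in cKO versus dKO. The SE of the log2 fold change had a median of 0.23, 0.26 and 0.27 in the 3 comparisons. With litter as a covariate the numbers of genes were 43, 21 and 31 and the median SEs 0.20, 0.39 and 0.30, and with batch as a covariate they were 41, 22 and 19 and 0.25, 0.36 and 0.41, so that the comparisons with dKO were less precise within litters or batches. In cKO versus dKO, the fits with litter or batch set the dKO mice against cKO F3 alone. In cKO versus ctrl *Ung*, with a log2 fold change of −0.86 and a wholly negative interval, was still not called. A call at an FDR below 0.05 over all listed genes thus asked for more than such an interval. Differences larger than these intervals could therefore be missed as well as smaller ones.

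**Figure D2:**
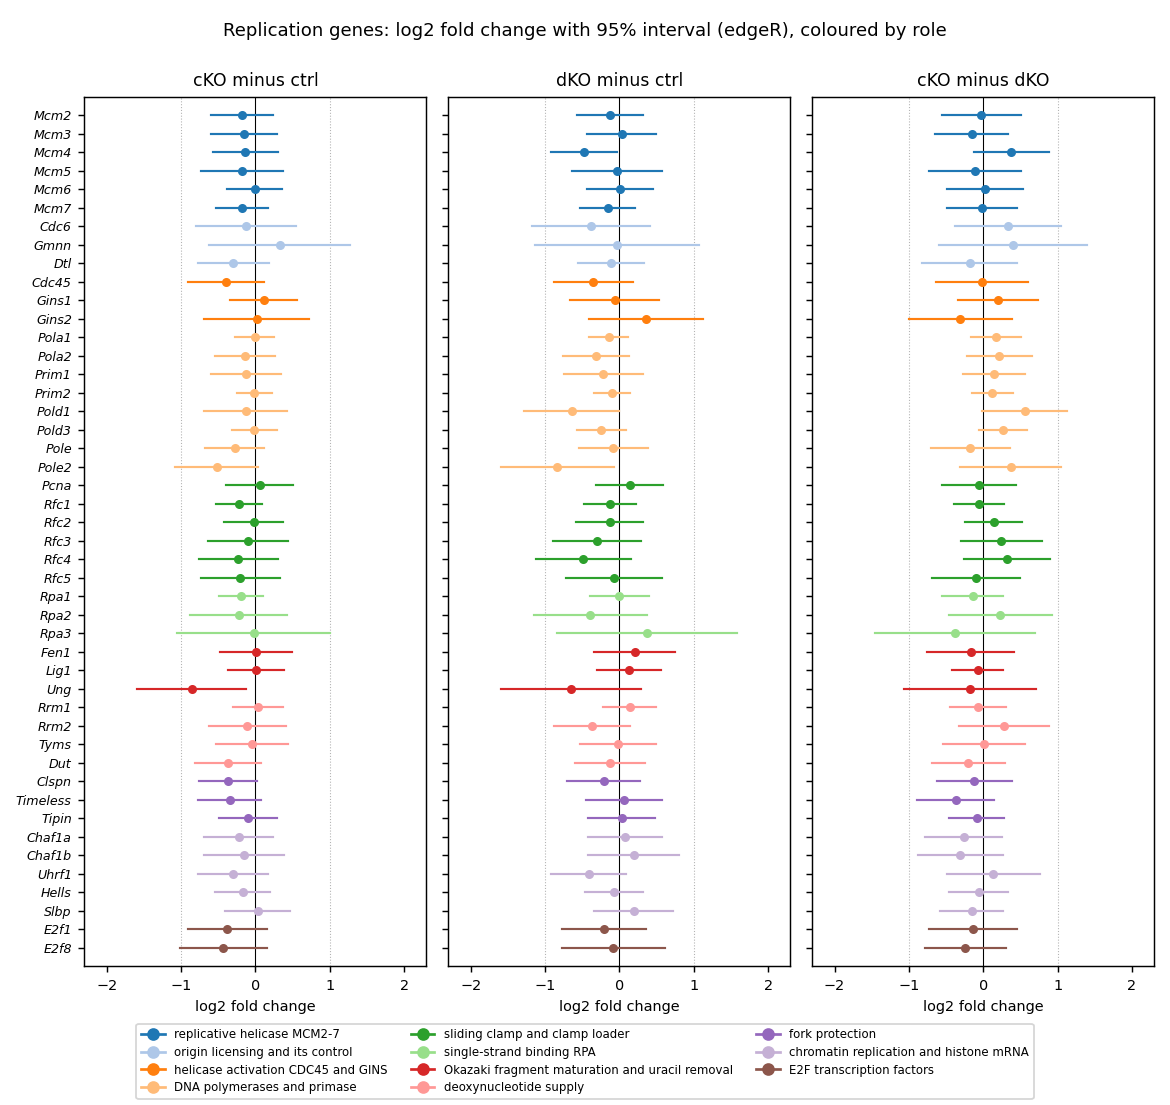
Log2 fold change of each of the 46 replication genes in the 3 comparisons, with 95% intervals from edgeR, coloured by role, and dotted lines mark −1 and 1. Most intervals span 0, and *Ung* is the gene of cKO minus ctrl whose interval does not, at −1.59 to −0.13.

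The replicative helicase was described through *Mcm2* and *Mcm3* and through *Mcm4*, which had 1 of the smallest p in 2 comparisons. In this and the following sentences the cKO values are those of mice 5, 7, S2 and F3, and the dKO values those of T2, T8, F1 and F7, in that order. *Mcm2* ranged from 33.2 to 57.4 CPM in ctrl, with a median of 37.0, and was at 26.6, 42.0, 52.7 and 27.3 CPM in cKO and 36.5, 54.5, 42.3 and 24.1 CPM in dKO. *Mcm3* ranged from 15.1 to 45.6 CPM in ctrl, with a median of 28.9, and was at 19.3, 31.3, 40.4 and 26.6 CPM in cKO and 46.4, 29.6, 38.6 and 24.1 CPM in dKO. The groups overlapped for both genes, with ctrl S3, ctrl T4 and cKO S2 among the 5 highest mice and cKO 5 and dKO F7 among the 4 lowest. *Mcm4* (ENSMUSG00000022673.4, chr16:15623897-15637400, minus strand) ranged from 16.8 to 42.0 CPM in ctrl, with a median of 27.3. It was at 20.3, 24.8, 36.5 and 18.4 CPM in cKO and at 14.9, 23.1, 23.2 and 16.5 CPM in dKO, where T2 and F7 lay below the lowest ctrl mouse and the other two within the ctrl range. Its log2 fold change in dKO versus ctrl was −0.48 (SE 0.23, unadjusted p = 0.0354 and FDR of 1 by edgeR), and in cKO versus dKO it was 0.38 (SE 0.26). Over the 6 subunits, *Mcm5*, *Mcm6* and *Mcm7* included, the log2 fold change ran from −0.19 to −0.0095 in cKO versus ctrl and from −0.48 to 0.030 in dKO versus ctrl.

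Origin licensing was measured by *Cdc6*, *Gmnn* and *Dtl*, since *Cdt1* had no count. *Gmnn*, which encodes geminin, the inhibitor of CDT1, was among the lowest of the genes. *Gmnn* ranged from 0 to 5.43 CPM in ctrl, with a median of 1.68, and was at 1.42, 3.75, 5.57 and 2.5002 CPM in cKO and 1.66, 1.85, 3.62 and 2.33 CPM in dKO. With 0 counts in 2 ctrl mice, its 95% interval of −0.62 to 1.27 in cKO versus ctrl spans more than a doubling. *Dtl*, whose product directs CDT1 to degradation in S phase, and *Cdc6* had log2 fold changes of −0.30 and −0.13 in cKO versus ctrl and −0.11 and −0.38 in dKO versus ctrl. Helicase activation was represented by *Gins1*, a GINS subunit. *Gins1* ranged from 9.18 to 16.8 CPM in ctrl, with a median of 11.1, and was at 11.0, 12.8, 15.9 and 12.3 CPM in cKO and 3.32, 19.4, 13.3 and 8.93 CPM in dKO. In dKO the genotype spanned the lowest and the highest level of all 15 mice. *Cdc45* had log2 fold changes of −0.40 in cKO and −0.35 in dKO against ctrl, and *Gins2* of 0.014 and 0.36, none with an unadjusted p below 0.05.

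DNA polymerases and primase held 8 genes, and all 8 had a negative log2 fold change in both comparisons with ctrl, none at an FDR below 0.05. *Pola1*, the catalytic subunit of polymerase α, had the lowest coefficient of variation among the 7 ctrl mice, while in cKO it was highest in S2 and lowest in F3. *Pola1* ranged from 135 to 169.7 CPM in ctrl, with a median of 158, and was at 156, 157, 193 and 118 CPM in cKO and 157, 164, 128 and 122 CPM in dKO. *Pole2*, the accessory subunit of polymerase ε (ENSMUSG00000020974.6, chr12:69201773-69228195, minus strand), gave the smallest p in dKO versus ctrl. It ranged from 0 to 18.7 CPM in ctrl, with a median of 7.28, and was at 4.67, 5.25, 7.17 and 4.77 CPM in cKO and 4.97, 6.47, 5.13 and 2.91 CPM in dKO. Both mutant groups lay inside the ctrl range, whose ends were the shallow mice T5, at 0, and T3. Its log2 fold change was −0.84 in dKO (SE 0.39, unadjusted p = 0.0312, FDR of 1 by edgeR) and −0.52 in cKO (SE 0.29, p = 0.0664), while the exact permutation p over mice was 0.77 and 0.924.

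*Pold1*, the catalytic subunit of polymerase δ (ENSMUSG00000038644.14, chr7:44532746-44548849, minus strand), ranged from 7.00 to 24.6 CPM in ctrl, with a median of 11.7. It was at 10.6, 11.8, 18.0 and 9.32 CPM in cKO and at 9.95, 8.32, 9.36 and 7.96 CPM in dKO, with the 3 highest of all mice those of litter 2. Its log2 fold change was −0.64 in dKO versus ctrl (SE 0.32, unadjusted p = 0.0468, FDR of 1 by edgeR) and 0.55 in cKO versus dKO (SE 0.29, unadjusted p = 0.0554). Within batch 3 the first of these was 0.16 and so of the opposite sign. *Pold3* ranged from 37.8 to 74.3 CPM in ctrl, with a median of 56.9, and was at 55.1, 66.5, 65.1 and 48.9 CPM in cKO and 44.8, 58.2, 50.4 and 45.8 CPM in dKO. For *Pold3* the log2 fold change in cKO versus dKO was 0.27 (SE 0.16), and −0.0040 within batch 3, where F3 is the only cKO mouse. *Pole*, *Pola2*, *Prim1* and *Prim2* had log2 fold changes of −0.28, −0.14, −0.13 and −0.014 in cKO versus ctrl.

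*Pcna* encodes the sliding clamp that holds polymerases on DNA. *Pcna* ranged from 11.8 to 26.6 CPM in ctrl, with a median of 20.6, and was at 16.7, 19.3, 30.0 and 16.4 CPM in cKO and 14.9, 26.8, 25.1 and 19.2 CPM in dKO. The groups overlapped, with cKO S2 above every other mouse and ctrl 2 below every other mouse, and the log2 fold change was 0.055 in cKO and 0.14 in dKO against ctrl. Among the subunits of the clamp loader RFC, *Rfc4* had 1 of the smallest p in both comparisons with dKO. *Rfc4* ranged from 3.36 to 23.3 CPM in ctrl, with a median of 9.81, and was at 8.53, 9.25, 13.2 and 7.73 CPM in cKO and 14.9, 9.24, 6.64 and 6.79 CPM in dKO. Its log2 fold change of −0.49 in dKO versus ctrl (SE 0.33) had an unadjusted p of 0.142 by edgeR, and the highest level was that of ctrl T3, the shallowest mouse. The other loader subunits, *Rfc1*, *Rfc2*, *Rfc3* and *Rfc5*, had log2 fold changes of −0.22, −0.025, −0.098 and −0.20 in cKO versus ctrl. The single-strand binding genes *Rpa1*, *Rpa2* and *Rpa3* had log2 fold changes of −0.20, −0.23 and −0.02 in cKO and −0.0037, −0.39 and 0.37 in dKO against ctrl.

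*Ung*, the glycosylase that removes uracil from newly made DNA (ENSMUSG00000029591.14, chr5:114130386-114139323, plus strand), had the smallest p of the genes in cKO versus ctrl and the lowest level per kilobase. It ranged from 0 to 5.63 CPM in ctrl, with a median of 3.8008, was at 2.03, 2.5004, 2.73 and 1.14 CPM in cKO and at 0, 1.85, 3.32 and 2.52 CPM in dKO. All 4 cKO mice lay below 6 of the 7 ctrl mice, and the ctrl mouse at 0 was T3, the shallowest. Its log2 fold change in cKO was −0.86 (SE 0.37, 95% interval −1.59 to −0.13, unadjusted p = 0.0202, edgeR FDR = 0.8288), and the exact permutation p was 0.567. In dKO it was −0.65 (SE 0.48), and no mouse had more than 24 counts. *Fen1*, the flap endonuclease that trims Okazaki fragments, and *Lig1*, the ligase that joins them, showed no such difference. *Fen1* ranged from 7.00 to 15.4 CPM in ctrl, with a median of 12.3, and was at 8.74, 12.002, 18.0 and 12.5 CPM in cKO and 6.63, 24.0, 16.0 and 11.6 CPM in dKO. The log2 fold changes of *Fen1* and *Lig1* in cKO versus ctrl were 0.0083 and 0.0068.

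Deoxynucleotide supply was measured by 4 genes. *Rrm1* and *Rrm2* encode the large and small subunits of ribonucleotide reductase, of which RRM2 is made in S phase. *Rrm1* ranged from 31.9 to 62.4 CPM in ctrl, with a median of 51.9, and was at 44.1, 49.5, 68.1 and 48.9 CPM in cKO and 59.7, 52.7, 67.9 and 45.8 CPM in dKO. *Rrm2* ranged from 14.9 to 33.3 CPM in ctrl, with a median of 21.0, and was at 17.5, 23.8, 35.5 and 13.2 CPM in cKO and 28.2, 19.4, 19.9 and 13.0 CPM in dKO. cKO S2 was the highest of all 15 mice for both genes, and cKO F3 and dKO F7 were the lowest for *Rrm2*. *Tyms* encodes thymidylate synthase and *Dut* the dUTPase that keeps uracil out of DNA. *Tyms* ranged from 4.67 to 31.1 CPM in ctrl, with a median of 21.0, and was at 16.7, 18.5, 30.3 and 14.8 CPM in cKO and 13.3, 28.6, 23.8 and 15.5 CPM in dKO. *Dut* ranged from 15.2 to 27.7 CPM in ctrl, with a median of 21.6, and was at 11.8, 15.3, 22.3 and 17.0 CPM in cKO and 16.6, 13.9, 24.1 and 19.8 CPM in dKO. *Dut* had 1 of the 5 smallest p in cKO versus ctrl, with a log2 fold change of −0.37 (SE 0.23, unadjusted p = 0.106 by edgeR), and cKO 5 was the lowest of all 15 mice while S2 lay above 4 of the 7 ctrl mice.

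*Clspn*, *Timeless* and *Tipin* protect the replication fork and pass on the checkpoint signal when it stalls. *Clspn* ranged from 20.3 to 35.8 CPM in ctrl, with a median of 24.5, and was at 18.7, 24.3, 25.9 and 17.5 CPM in cKO and 13.3, 31.4, 32.3 and 16.3 CPM in dKO. *Timeless* ranged from 11.8 to 33.3 CPM in ctrl, with a median of 18.8, and was at 15.0, 15.3, 22.2 and 15.5 CPM in cKO and 34.8, 30.5, 19.6 and 14.4 CPM in dKO. For *Clspn* cKO 5 and F3 lay below the lowest ctrl mouse, and for *Timeless* the cKO mice other than S2 lay below 6 of the 7 ctrl mice. In cKO versus ctrl the log2 fold change was −0.37 for *Clspn* (SE 0.20, unadjusted p = 0.0623 by edgeR) and −0.34 for *Timeless* (SE 0.22, unadjusted p = 0.112). In cKO versus dKO that of *Timeless* was −0.37 (SE 0.26, unadjusted p = 0.163 by edgeR), with the 2 highest dKO mice those of litter 3, in which no cKO mouse was measured. *Tipin*, the partner of *Timeless*, had log2 fold changes of −0.10 in cKO and 0.03 in dKO against ctrl.

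*Uhrf1*, which brings DNA methyltransferase to newly copied DNA, and *Hells*, a chromatin remodeler, were the most abundant of the chromatin genes per kilobase. *Uhrf1* ranged from 21.8 to 57.8 CPM in ctrl, with a median of 32.3, and was at 24.0, 32.006, 47.3 and 19.1 CPM in cKO and 26.5, 48.0, 26.0 and 16.9 CPM in dKO. *Hells* ranged from 43.4 to 82.8 CPM in ctrl, with a median of 51.4, and was at 42.7, 48.0, 68.7 and 45.0 CPM in cKO and 56.4, 67.5, 56.1 and 41.9 CPM in dKO. For *Uhrf1* the lowest levels were in cKO F3 and dKO F7, both of litter 4. Its log2 fold change was −0.30 in cKO versus ctrl (SE 0.24) and −0.42 in dKO versus ctrl (SE 0.26, unadjusted p = 0.109 by edgeR). The histone chaperone genes *Chaf1a* and *Chaf1b* and *Slbp*, whose product binds histone mRNA, had log2 fold changes of −0.23, −0.16 and 0.031 in cKO and 0.069, 0.19 and 0.19 in dKO against ctrl.

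*E2f1*, an activator of S-phase genes, and *E2f8*, a repressor that itself rises in S phase, were at 4.16 ± 1.56 and 2.85 ± 1.73 CPM per kilobase of exon in ctrl (SD, n = 7). *E2f1* ranged from 6.67 to 20.2 CPM in ctrl, with a median of 12.2, and was at 8.74, 10.8, 15.0 and 6.82 CPM in cKO and 16.6, 15.7, 10.6 and 8.93 CPM in dKO. *E2f8* ranged from 4.45 to 31.1 CPM in ctrl, with a median of 10.3, and was at 10.4, 10.8, 14.8 and 10.7 CPM in cKO and 18.2, 24.0, 9.96 and 11.1 CPM in dKO. In ctrl *E2f8* spanned its range within litter 3, where T5 was lowest and T4 highest. The log2 fold change in cKO versus ctrl was −0.38 for *E2f1* (SE 0.27) and −0.43 for *E2f8* (SE 0.30).

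**Figure D3:**
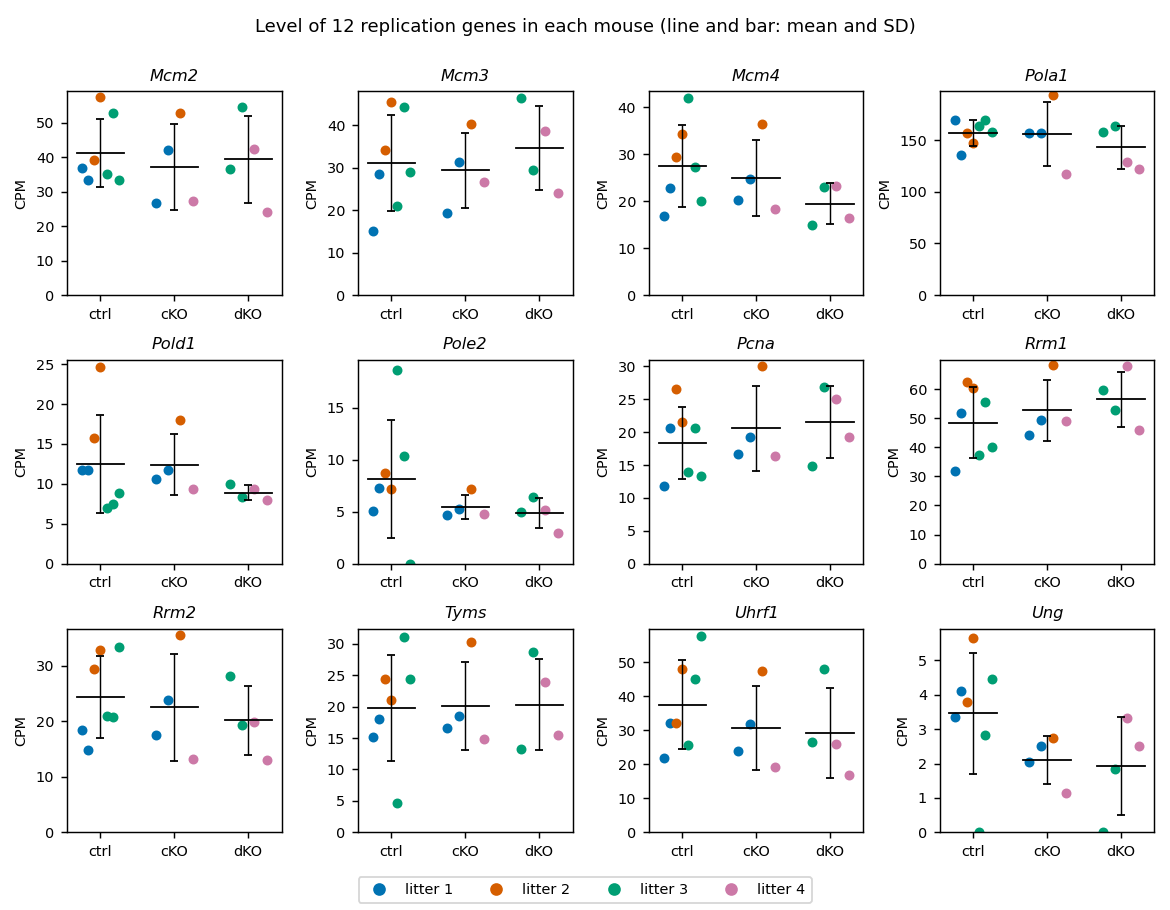
Level in CPM of 12 replication genes in each mouse, by genotype and coloured by litter, with the mean (line) and SD (bar) of 7 ctrl, 4 cKO and 4 dKO mice. The genotypes overlap in every panel, and the litter 2 mouse is the highest cKO mouse in each of them.

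Other genes of the cell cycle and of the cell types present were counted from lists of the same kind. Among 56 further replication genes, 0 reached an FDR below 0.05 in the 3 comparisons by edgeR's likelihood ratio test, with 1, 6 and 2 at an unadjusted p below 0.05, and median log2 fold changes of −0.090, −0.16 and 0.034. In cKO versus ctrl the smallest p were those of *Chtf18*, *Cdk2* and *Dbf4* (log2 fold changes −0.99, −0.62 and −0.40), and in dKO versus ctrl those of *Dbf4*, *Ccna2* and *Cdk2* (−0.77, −0.63 and −0.84). Among 25 G2 and mitosis genes 0 were called, with medians of −0.22, −0.12 and −0.073, and 1, 2 and 0 at an unadjusted p below 0.05. The smallest p were those of the checkpoint genes *Ttk*, *Bub1b* and *Bub1* in cKO versus ctrl (−0.59, −0.36 and −0.41), of *Bub1b*, *Cdc25c* and *Ttk* in dKO versus ctrl (−0.56, −0.67 and −0.49) and of *Cdk1*, *Aurka* and *Cdc25c* in cKO versus dKO (0.37, −0.40 and 0.45).

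In the same fits other lists did hold called genes. The shares over all listed genes were 0.160% in cKO versus ctrl, 0.0501% in dKO versus ctrl and 0.0520% in cKO versus dKO. The paper had already called each gene named below as called in cKO versus ctrl, from the same libraries. Their being called is therefore no independent check of the fits. Of 17 p53 targets, 5 rose in cKO versus ctrl, among them *Cdkn1a*, an inhibitor of the kinases that drive S-phase entry (log2 fold change 1.70, FDR = 0.00366), and *Ano3*, *Eda2r*, *Pvt1* and *Ccng1* (2.06, 2.69, 1.135 and 0.86). In dKO versus ctrl 0 of the 17 were called, with 1, *Ano3*, at an unadjusted p below 0.05, and in cKO versus dKO 6 were higher in cKO, *Fas* and the same 5. Of 8 genes of intermediate progenitors (IPs), the dividing daughters of radial glia, 2 fell in cKO versus ctrl. *Eomes*, an IP transcription factor, averaged 73.6 CPM (SD 16.4, n = 7) without the deletion and 35.0 CPM (SD 9.48, n = 4) with it, a log2 fold change of −1.128 (FDR = 5.06e-06), and *Neurog2* had −1.19 (FDR = 0.00564). The 8 genes summed to between 143 and 206 CPM in the ctrl mice, between 74.1 and 149 CPM in the cKO mice and between 97.8 and 173 CPM in the dKO mice. Radial glia genes, 12 of 13 with a count, had a median of −0.30 in cKO versus ctrl with 0 called and 5 at an unadjusted p below 0.05, all lower, led by *Emx2*, *Notch1* and *Slc1a3* (−0.49, −0.42 and −0.31). In dKO versus ctrl their median was −0.18, with 0 at an unadjusted p below 0.05. All 10 interneuron genes were higher in cKO versus ctrl, with a median of 0.39 and 7 at an unadjusted p below 0.05. Of these *Gad1* was called (0.56, FDR = 0.0408). Lists of excitatory neurons, microglia, endothelium and pericytes, erythroid cells and meninges held 0 called genes in cKO versus ctrl, and *Hba-a2* of the erythroid list rose in dKO versus ctrl (1.98, FDR = 0.0203). The part of cell composition in the levels of the replication genes was not tested.

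Mice of the same genotype differed from each other in the level of most replication genes at once. Among the 4 cKO mice, S2, whose counts are the sum of 2 libraries, was the highest for 43 of 46 genes, and among the 4 dKO mice T8 was the highest for 24 and F7 the lowest for 24. Over the 46 genes the mean log2 CPM was 3.99, 4.22, 4.64 and 3.97 in cKO 5, 7, S2 and F3 and 4.09, 4.47, 4.35 and 3.95 in dKO T2, T8, F1 and F7. In ctrl 2, 6, S1, S3, T3, T4 and T5 it was 3.98, 4.14, 4.48, 4.66, 4.04, 4.41 and 4.15. Ordered by litter, the 3 mice of litter 2 were at 4.48 to 4.66, above the other 12 mice, which were at 3.95 to 4.47, with dKO T8 of litter 3 next to S1. This order was lost under other scalings. With RLE size factors T8 was at 4.503 and S1 at 4.465, and after thinning every mouse to the shallowest total T8 and ctrl T4 were at 4.80 and 4.78 and S1 at 4.68. Both genotypes of litter 2 took part, as cKO S2 lay between its ctrl littermates S1 and S3. Without cKO S2 the median log2 fold change of the genes in cKO versus ctrl was −0.35 in place of −0.15, and 0 reached an FDR below 0.05. In that fit 14 of 46, all lower in cKO, had an unadjusted p below 0.05 by edgeR. The share over all genes in that fit is not given here, so the 14 are not read as a result about the replication genes. With the 3 cKO and 3 ctrl mice of batch 1 alone the median was −0.0095. With TMM scaling, the mean of cKO 5 and 7 in litter 1 was 0.043 above that of their ctrl littermates on the log2 scale. In litter 2 cKO S2 was 0.074 above the mean of its own ctrl littermates. Within litter 3 the dKO mean was 0.080 above that of ctrl. In litter 4 the single cKO mouse was 0.18 below the mean of the dKO mice. The direction in litter 1 was not kept with RLE scaling or after thinning, and in litters 2 and 4 it was kept. After thinning cKO 5 and 7 were at 4.257 and 4.448 and ctrl 2 and 6 at 4.431 and 4.501. The thinned dKO T2 and T8, at 4.544 and 4.804, lay on either side of ctrl T3, T4 and T5, at 4.581 to 4.776.

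**Figure D4:**
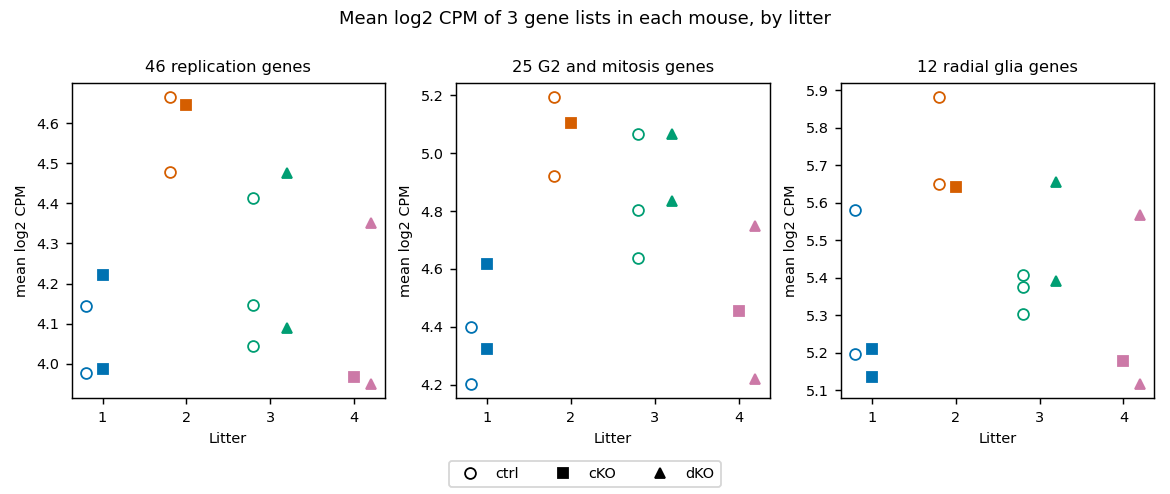
Mean log2 CPM per mouse of 46 replication genes, 25 G2 and mitosis genes and 12 radial glia genes, by litter (x axis) and genotype (symbol). The 3 mice of litter 2 are at 4.48 to 4.66 in the first panel, above the others under TMM scaling, while under RLE scaling or thinning dKO T8 lies above S1.

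Litters 1 and 2 each held ctrl and cKO mice, and they were compared with genotype in the model, a comparison chosen after the data were seen. At an FDR below 0.05, edgeR's likelihood ratio test called 13 of 46 genes, all higher in litter 2, where 0.572% of all listed genes were higher. Many listed genes had no count, and of the 12023 that passed the filter 286 were called higher. At an unadjusted p below 0.05, 35 were higher and 0 lower, against 5.75% of genes with a count, and 22 had every litter 2 mouse above every litter 1 mouse, against 4.62%. The median log2 difference was 0.57 over the 46 genes and 0.024 over the 12023 that passed the filter. It was 13 again within batch 1, which holds all of these mice but S1, and 17 with sex as a covariate. The number called rests on few mice. It was 2 without cKO 5, 7 without cKO 7, 2 without ctrl S3, 0 without cKO S2, 5 with the first S2 library alone, 4 by DESeq2, and 0 after thinning every mouse to 399832 counts, where the median was 0.42 and 44 of 46 were positive. Without cKO S2 the median was 0.49, and the median SE was 0.30 in place of 0.19. Totals were 574401 to 5301380 counts in litter 1 and 1829617 to 8800987 in litter 2.

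By role, all 4 deoxynucleotide genes and 4 of the 6 helicase genes were called in the main fit. These counts depend on the fit, as of 17 alternative fits *Rrm2* was called in 15, *Dut* in 10, *Tyms* in 6 and *Rrm1* in 5. *Mcm2* was not called, with an edgeR FDR of 0.0533 in the main fit, and it was called in 7 of the 17. *Rrm2* (ENSMUSG00000020649.11, chr12:24708241-24714146, plus strand) was at 18.5, 14.9, 17.5 and 23.8 CPM in ctrl 2 and 6 and cKO 5 and 7, and at 29.3, 32.8 and 35.5 CPM in ctrl S1 and S3 and cKO S2. The litters did not overlap, and the log2 difference was 0.89 (SE 0.18, edgeR FDR = 0.000239). *Mcm3* was at 15.1, 28.5, 19.3 and 31.3 CPM in the 4 mice of litter 1 and 34.2, 45.6 and 40.4 CPM in the 3 of litter 2 in the same order, a log2 difference of 0.70 (SE 0.19, edgeR FDR = 0.0157). *Dtl* had 0.80 (SE 0.17, edgeR FDR = 0.000676), *Hells* 0.56 (SE 0.15, edgeR FDR = 0.0128) and *Uhrf1* 0.63 (SE 0.18, edgeR FDR = 0.0253). The other called genes were *Mcm4*, *Mcm5*, *Mcm6*, *Prim1*, *Pold1*, *Rrm1*, *Tyms* and *Dut*, with log2 differences between 0.49 and 0.75. An E2F motif was found for 7 of the 12 called genes with a promoter in the table and for 8 of 26 that were not called, among them *Pola1*. The 5 called genes without it were *Prim1* and the 4 deoxynucleotide genes, *Rrm2* with the smallest p included.

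At the other end, *Prim2*, *Mcm7*, *Pold3* and *Pola1* had the smallest differences between the litters. Their log2 differences were 0.066 (SE 0.12), 0.086 (SE 0.15), 0.16 (SE 0.14) and 0.19 (SE 0.12), each with an edgeR FDR of 1. These 4, singled out after their values were seen, are among the 5 genes with the highest level per kilobase in ctrl. That level divides by exon length and would be overstated for long genes if intron reads were counted. *Pola1* was at 169.7, 135, 156 and 157 CPM in litter 1 and 157, 147 and 193 CPM in litter 2, so that the litters overlapped. Over the 7 ctrl mice its coefficient of variation was 7.93%, against 9.04% from counting error alone at these depths, and for *Prim2* it was 8.68% against 10.5%. For *Mcm3* it was 36.2% against 20.3%.

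**Figure D5:**
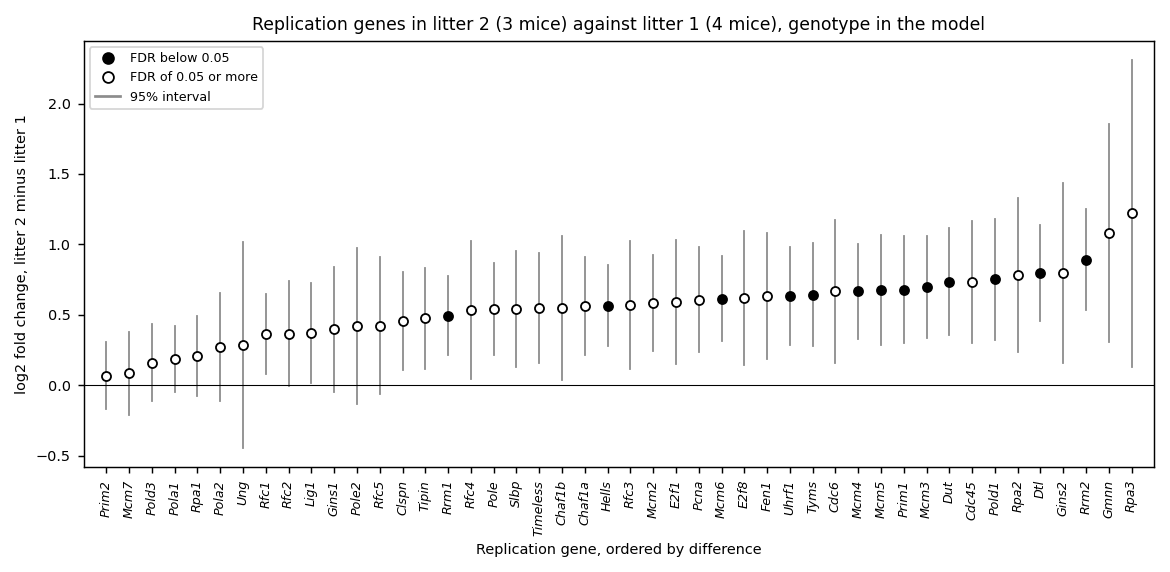
Log2 fold change of each of 46 replication genes in litter 2 (2 ctrl, 1 cKO) over litter 1 (2 ctrl, 2 cKO) with genotype in the model and 95% intervals, where filled points are the 13 genes with an FDR below 0.05. All 46 points lie above 0, from 0.066 for *Prim2* to 1.22 for *Rpa3*.

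Positive differences between litter 2 and litter 1 were found for all 25 G2 and mitosis genes and for 9 of 12 radial glia genes with a count. Of all 51912 listed genes, 297 were called higher in litter 2 and 339 lower. Of the 25 G2 and mitosis genes 17 were called, all higher, with a median log2 difference of 0.73, led by *Top2a*, *Tpx2* and *Nusap1* (0.68, 0.69 and 0.77), and 13 of the 56 further replication genes were called, all higher, led by *Rbl1*, *Exo1* and *Ccna2* (0.72, 1.04 and 0.74). Of the 13 radial glia genes 5 were called, all higher, namely *Pax6*, *Hes1*, *Notch1*, *Hes5* and *Ddah1* (0.82, 1.23, 0.55, 1.32 and 0.41). The 12 with a count summed to between 724 and 995 CPM in litter 1 and 962 and 1133 in litter 2. IP genes had 0 called and a median of 0.48. Of the 10 excitatory neuron genes 6 were lower and 4 higher in litter 2, with a median of −0.11, 3 lower and 1 higher at an unadjusted p below 0.05 and 1 called lower. They summed to between 4833 and 5431 CPM in litter 1 and 4478 and 4720 CPM in litter 2, without overlap. *Csf1r* of the microglia genes was lower (−1.42), their 11 genes summing to between 18.4 and 30.7 CPM in litter 1 and 10.2 and 16.6 in litter 2. *Dlx6* of the interneuron genes was higher (1.35), *Hbb-y* of the erythroid genes was higher (3.30), and p53 targets, meninges and endothelium and pericytes held 0 called genes. Of the 6 meninges genes 0 passed the filter on low counts here. The part of these cell types in the difference between litters was not tested.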

How the data were processed

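Cortex of 15 mice was measured in 16 libraries. Per the paper's methods and the submitters' processing notes, the authors made fastq files with bcl2fastq 2.17, trimmed reads with cutadapt 1.13, aligned them with STAR 2.5.2a to GRCm38, removed PCR copies by UMI with UMI-tools 0.5.3 and counted reads per gene with HTSeq 0.6.1p1 (intersection-nonempty), and used edgeR 3.18.1. The deposited values are whole-number counts per gene and library, without normalization. The annotation release and strand setting are not given in the sources used here. Symbols, coordinates and exon lengths came from GENCODE M21, which matched 51719 of 51912 identifiers.

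Libraries S2 and S2b were summed as 1 mouse, and 5 summary rows per library were left out. Each comparison used the counts of its 2 groups in a fit by edgeR 4.0.16 under R 4.3.3 (TMM, estimateDisp, glmFit, glmLRT, no covariates), and FDR is Benjamini-Hochberg adjusted over all listed genes. Comparing litter 2 with litter 1 used litter and genotype as terms. Alternatives were the quasi-likelihood F test, DESeq2 1.42.0, other scaling, filters, thinning, covariates, subsets of mice and leaving out each mouse. The fits were tested on simulated counts. The edgeR p-values take each embryo as independent, littermates included, and the spread they use is estimated in part from other genes. With a single litter on each side, those of litter 2 versus litter 1 do not measure the spread between litters. Mean log2 CPM used a prior count of 2.

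The genes and lists were chosen with earlier results of these data known. Per-mouse values are given for a chosen set covering the roles and for the 5 genes with the smallest p in each comparison. In the lists of other cell types called genes are named, except where a result is not reported here. Promoter sequences are RefSeq's.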

Additional observations from a re-analysis of the deposited data

Results flagged for a closer look

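Over 24 measures in each of the 3 groups, 2 of 72 tests for a mouse far from the rest of its group were positive, both in cKO, and chance gives about 1 in 20. *Timeless*, a fork protection gene, was at 22.2 CPM in cKO S2 against 15.0 to 15.5 CPM in the other cKO mice. *E2f8*, the E2F repressor, was at 14.8 CPM in cKO S2 against 10.4 to 10.8 CPM. Both values are within the ctrl range, and S2 is the mouse whose counts come from 2 libraries. The cause was not tested.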

How the results depend on the processing

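In the 3 comparisons of genotypes 0 replication genes were called under every alternative run, including DESeq2, RLE scaling, the filter on low counts, thinning, the covariates and each mouse left out. The median log2 fold change ran from −0.35 to −0.059 in cKO versus ctrl, −0.23 to 0.055 in dKO versus ctrl and −0.23 to 0.12 in cKO versus dKO with a mouse left out. The median of dKO versus ctrl was 0.070 without dKO F1 and F7. The number called between litters 2 and 1 was 4 with DESeq2, 5 with library S2 only, 0 after thinning (median 0.42), and 0 to 13 with a mouse left out. With a mouse left out the median log2 difference between these litters ran from 0.49 to 0.64. In dKO versus ctrl *Pold1* changed sign, to 0.17 with batch and 0.21 with litter as a covariate, 0.16 in batch 3 and 0.22 in litter 3, and so did *Uhrf1* (0.050) and *Rfc4* (0.015) without dKO F1 and F7. In cKO versus dKO *Mcm4* was at −0.079 with batch, −0.068 with litter as a covariate, −0.079 in batch 3 and −0.10 in litter 4. There *Pold3* was at −0.0016 with batch as a covariate and −0.0040 in batch 3, and *Rfc4* at −0.029, −0.062 and −0.22 with batch, in batch 3 and without dKO F1 and F7. The cKO versus dKO values with batch or litter as a covariate, in batch 3 and in litter 4 set dKO mice against cKO F3 alone. With RLE scaling or thinning the mean log2 CPM of dKO T8 exceeded that of ctrl S1 of litter 2. The cause was not tested. Mouse names are not shared between the groups, so no fit paired mice by name, and litter as a covariate, which blocks by littermates, changed no call. Genotype is tied to litter and batch in part, since litter 3 holds no cKO mouse, litters 1 and 2 no dKO mouse and litter 4 no ctrl mouse. Depth limits the low genes, as 3 counts are 7.50 CPM in the shallowest mouse.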

Other observations

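Outside the lists, *Hmga2*, a chromatin gene of early progenitors, was singled out after its values were seen. It was at 84.5 to 98.7 CPM in the 3 mice of litter 2 and 25.3 to 45.3 CPM in the 4 of litter 1 (log2 difference 1.54, edgeR FDR = 1.70e-19). In litter 3 it spanned 28.0 to 82.8 CPM and in litter 4 37.1 to 42.5 CPM. *Hbb-y*, an embryonic globin gene, was at 4.61 to 8.76 CPM in litter 2 and 0 to 1.75 CPM in litter 1. It spanned 0 to 4.67 CPM in litter 3, which overlaps litter 2, and 0.302 to 0.970 CPM in litter 4. The adult globin genes *Hbb-bt* and *Hbb-bs* had log2 differences between litters 2 and 1 of 0.76 and −0.45, each with an edgeR FDR of 1.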
